A study of Mus musculus with 3 samples.

Results

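The Ikaros zinc finger family was examined in H3K27ac peak lists of mouse thymocytes. H3K27ac is histone H3 acetylated on lysine 27, found at promoters and enhancers in use. Its 5 members, Ikzf1, Ikzf2, Ikzf3, Ikzf4 and Ikzf5, were taken by symbol from 21887 protein-coding genes placed on mm10, and all 5 were found. The lists come from 2 replicates of H3K27ac chromatin from wild-type C57BL/6J mice aged 5 to 7 weeks. The cells were CD4-CD8- double negative thymocytes, labelled CD25+CD44-/+, sorted from thymus and used without culture. Chromatin was captured with an antibody against histone H3 before the H3K27ac antibody was applied. An input sample of the same cells is labelled and was not analysed here. No genotype, treatment or stage was contrasted among these samples. The labels do not say whether the replicates came from separate animals.

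Ikaros family proteins are transcription factors with C2H2 zinc fingers, one set near the N terminus that binds DNA and another at the C terminus through which members pair with themselves and each other. In lymphocytes they act largely as repressors that recruit the NuRD, Sin3 and CtBP corepressors, and NuRD also removes acetyl groups from histones. In the mouse thymus Ikaros is present from early progenitors on, and its loss leads to T cell leukaemia with active Notch signalling. Helios is made in subsets of T cells and is known from regulatory T cells, Aiolos rises in later lymphocyte stages and Eos works with Foxp3 in regulatory T cells. Pegasus is the most divergent member and is widely expressed.

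Wide acetylated stretches lay at the genes for Ikaros and Helios, where peaks of 1509 bp to 3926 bp met between replicates. At the other 3 members no peak was wider than 1053 bp. Ikzf1 and Ikzf2 had a peak within 1 kb of an annotated gene end in both replicates, which is 2 of 5 members (40.0%) against 16.8% of all protein-coding genes (3674 of 21887). In both genes the peaks of the replicates also overlapped within that 1 kb, as at 16.2% of all genes. In each replicate taken alone these 2 members had such a peak and the other 3 had none, where the background was 25.1% of genes in replicate 1 and 22.2% in replicate 2. Ikzf3 and Ikzf4 had only peaks away from their ends, and Ikzf5 had none within 25 kb in either replicate. Among genes at least as long as Ikzf4, 17.9% had gene-end peaks in both replicates, a background computed after the values were seen, since 4 of the members are long genes. These counts use all listed peaks. At a q-value (the p-value adjusted over the list) of at most 0.05, no peak of the family in replicate 1 passed. At that threshold 0 of 5 members had a gene-end peak in both replicates, against 2.64% of all genes.

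Replicate 1 held 12377 peaks on the assembled chromosomes (median width 615 bp) and replicate 2 held 9477 (561 bp). The fold of a peak over background, a ratio from the authors' caller, had a median of 2.17 and 2.31. A q-value of at most 0.05 was given to 27.1% and 41.0% of peaks. The depth of the libraries is unknown, because the files hold no read counts. Of 18 marker genes of the T lineage and the double-negative stage, 6 had gene-end peaks in both replicates (33.3%, against 16.8% of all genes). They were Tcf7, Dntt, Kit and the adjacent Cd3d, Cd3e and Cd3g. Rag1 and Rag2 had no peak within 25 kb, as for 38.4% of all genes. Later thymocyte, B cell, myeloid and thymic stroma markers had 0 of 9, 0 of 10, 0 of 10 and 0 of 8. Erythroid and NK markers had 1 of 8 and 1 of 9. Lists of 8 to 10 genes are short, and no test set these counts apart from the 16.8% of all genes. Within 25 kb, bp covered by both replicates were found at 12 of the 18 T lineage markers, 0 of 9 later thymocyte, 4 of 10 B cell, 3 of 10 myeloid, 3 of 8 stroma, 3 of 8 erythroid and 3 of 9 NK markers, against 30.9% of all genes.

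The promoter windows of the table of mouse promoters used here matched 2 members, Ikzf1 with 2 start sites and Ikzf5 with 1. They are shown because they differ in CpG content and in cover by peaks. Each runs from 250 bases before to 50 after the start site on the coding strand (RefSeq, GRCm38.p6), and capitals mark CpG dinucleotides. The windows are chr11:11685675-11685974 and chr11:11689927-11690226 (plus strand) for Ikzf1 and chr7:131410429-131410728 (minus strand) for Ikzf5.
Ikzf1 first start: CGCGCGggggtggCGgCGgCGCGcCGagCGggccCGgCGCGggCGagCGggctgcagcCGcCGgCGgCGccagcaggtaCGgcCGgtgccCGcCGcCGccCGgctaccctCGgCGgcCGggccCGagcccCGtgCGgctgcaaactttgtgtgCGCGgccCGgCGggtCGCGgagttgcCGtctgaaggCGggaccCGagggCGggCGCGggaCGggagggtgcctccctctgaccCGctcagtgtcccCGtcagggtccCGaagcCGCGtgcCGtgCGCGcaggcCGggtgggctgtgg
Ikzf1 second start: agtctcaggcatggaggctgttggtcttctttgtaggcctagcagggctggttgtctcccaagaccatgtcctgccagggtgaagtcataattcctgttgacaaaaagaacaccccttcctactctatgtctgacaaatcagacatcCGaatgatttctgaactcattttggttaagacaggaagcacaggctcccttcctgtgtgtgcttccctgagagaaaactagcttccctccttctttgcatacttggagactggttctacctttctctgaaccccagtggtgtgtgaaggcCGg
Ikzf5 start: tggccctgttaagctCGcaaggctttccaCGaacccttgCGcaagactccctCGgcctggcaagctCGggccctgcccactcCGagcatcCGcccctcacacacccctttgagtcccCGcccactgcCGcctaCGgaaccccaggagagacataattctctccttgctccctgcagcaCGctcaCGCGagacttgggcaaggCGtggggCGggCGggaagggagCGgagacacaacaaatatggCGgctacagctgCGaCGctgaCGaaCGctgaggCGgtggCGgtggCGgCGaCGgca

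The first Ikzf1 window held 52 CpGs, more than 99.4% of the 32851 windows in the table, and its ratio of observed to expected CpGs was 1.06. The second Ikzf1 window, 4252 bp further into the gene, held 2 CpGs with a ratio of 0.111. The Ikzf5 window held 27 CpGs with a ratio of 0.84. Over all windows the median was 7 CpGs and a ratio of 0.384.

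The CpG-rich first start of Ikzf1 lay under a peak of each replicate, and the CpG-rich start of Ikzf5 lay under none. Peaks covered 189 and 144 bases of the first Ikzf1 window in replicates 1 and 2. For comparison, 20.9% of windows with a CpG ratio of at least 0.6 lay under a peak of each replicate, against 1.35% of those with a lower ratio. The second Ikzf1 start, in a CpG-poor window, was covered over all 300 bases in replicate 2, where 2.47% of CpG-poor windows were touched by a peak of that replicate. In replicate 1 the nearest peak began 491 bp past that start. From the Ikzf5 start the nearest peak was 544 kb away in replicate 1 and 47.3 kb away in replicate 2.

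Both strands of these windows were searched for TGGGAA (Ikaros), CCGGAA (Ets factors), TGTGGT (Runx factors), CAGCTG (E proteins) and CTTTGA (TCF-1). TGGGAA and CCGGAA both end in GGAA, and the matches found did not overlap. Neither Ikzf1 window held any of them. The Ikzf5 window held CAGCTG at the start site itself (position 251 of the window) and CTTTGA 144 bases before it. Among all 32851 windows TGGGAA was found in 25.6%, CCGGAA in 14.9%, TGTGGT in 16.8%, CAGCTG in 16.3% and CTTTGA in 16.0%.

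**Figure D1:**
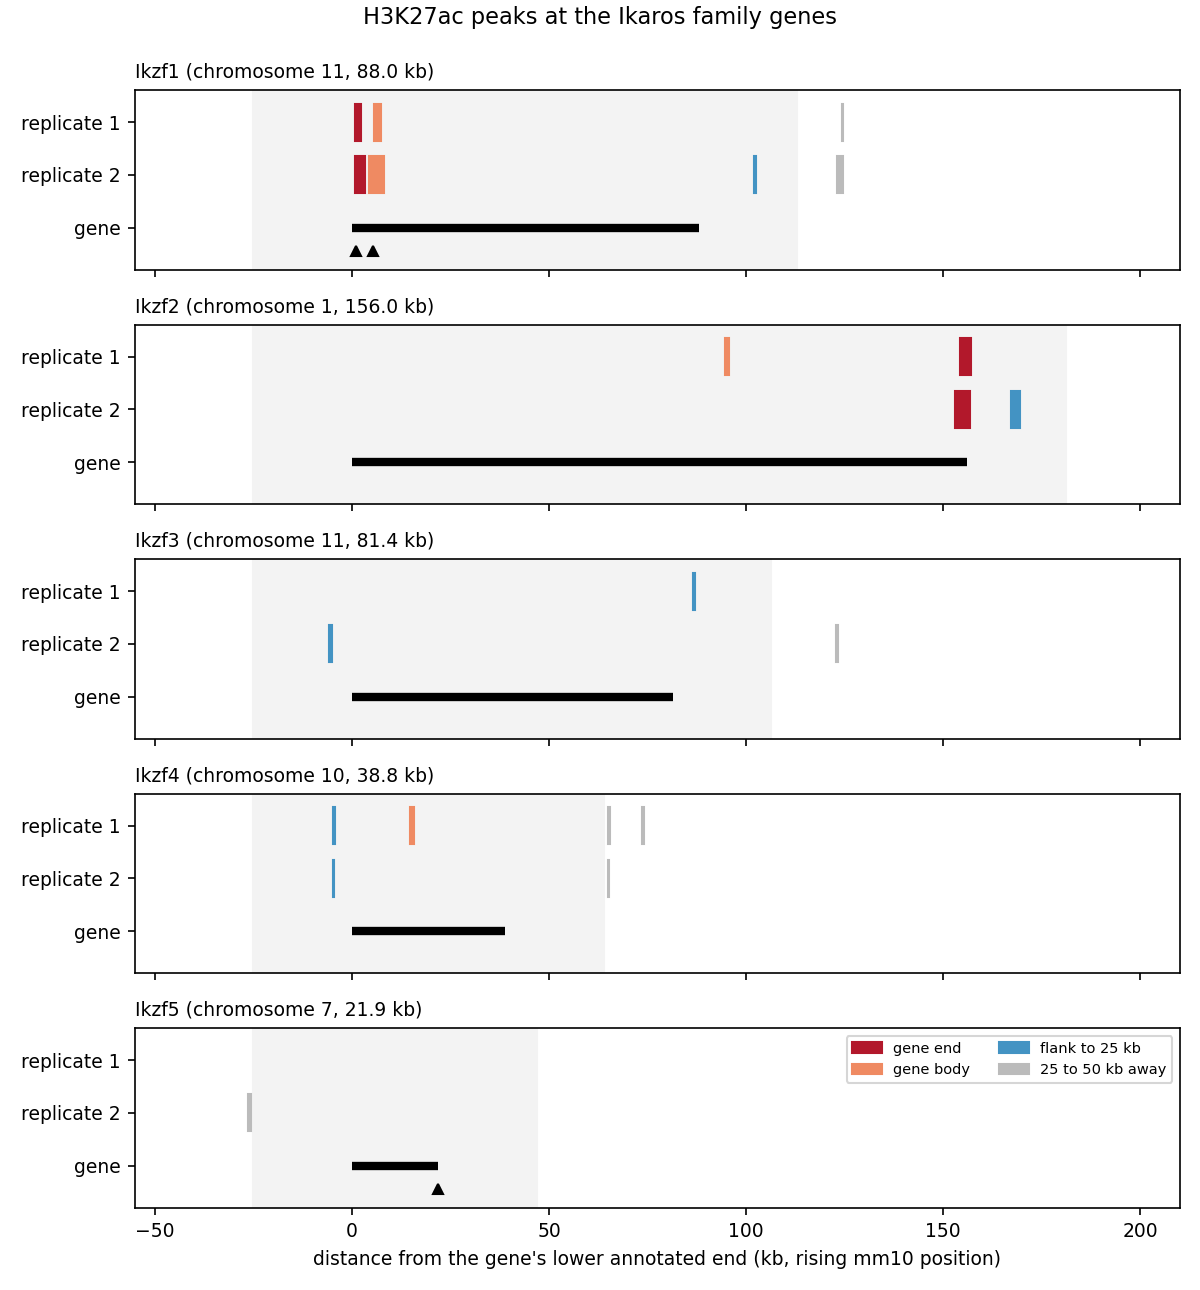
Peaks of replicate 1 and replicate 2 at the 5 genes, plotted as distance in kb from the lower annotated end of each gene. Black bars are genes, grey shading spans 25 kb on each side, triangles mark the start sites in the promoter table and colours give the zone of a peak (outlines widen each peak slightly so that narrow ones can be seen). Within the shading, peaks of both replicates meet at the beginning of Ikzf1, at the upper end of Ikzf2 and in the flank of Ikzf4. The shaded span of Ikzf5 is empty. Beyond the shading, peaks of both replicates also meet above Ikzf1 and above Ikzf4.

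Ikzf1 encodes Ikaros, the founding member of the family, and spans 88.0 kb on chromosome 11 (11684962 to 11772930). It carried a pair of acetylated blocks at its beginning in both replicates, and no peak over the rest of the gene. The block at the first start ran from 11685786 to 11687294 in replicate 1 and from 11685831 to 11688365 in replicate 2. These peaks began 139 bp and 94 bp before the first start site, and their starts therefore differed by less than their ends, which lay 1369 bp and 2440 bp past it. The peaks were 1509 bp and 2535 bp wide with folds of 2.39 and 2.36. Their −log10 q was 1.20 and 1.32. In fold they stood above 67.8% and 53.3% of their lists, and in width above 90.1% and 98.7%.

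The block deeper in Ikzf1 was unequal between replicates. It ran from 11690668 to 11692445 (1778 bp) in replicate 1 and from 11689414 to 11693075 (3662 bp) in replicate 2, so the peak of replicate 2 contained that of replicate 1 whole. Its fold was 1.80 in replicate 1, above 19.4% of peaks, and 3.01 in replicate 2, above 82.4%. The −log10 q was 0.528 in the narrower peak and 2.80 in the wider. In replicate 2 it was the 34th widest of 9477 peaks. A gap without a peak parted the blocks, 3373 bp long in replicate 1 and 1048 bp in replicate 2.

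Together the blocks covered 3242 bp in both replicates, 1464 bp in the first and 1778 bp in the second. That length exceeded the value of 99.5% of protein-coding genes, rank 120 of 21887, and per kb of the window searched it exceeded 96.6%. With the 10000 peaks of smallest p (all 9477 in replicate 2), the deeper peak of replicate 1 was no longer counted, and 1464 bp were covered by both. Only 132 bp of the shared length lay within 1 kb of the annotated gene end, because the annotated gene begins 963 bp before the first start site. For that measure Ikzf1 was rank 3384, and 3540 of 21887 genes had any such cover. The lncRNA gene Gm11999 overlaps the annotated beginning of Ikzf1 by 674 bp, and its upper end lies 151 bp and 196 bp from the peaks of replicates 1 and 2. No protein-coding gene other than Ikzf1 lies within 25 kb of it. In the flank, replicate 2 alone had a peak of 413 bp, 14.0 kb past the upper end, with a fold of 1.64.

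Ikzf2 encodes Helios and is the longest member, 156 kb on chromosome 1 (69531207 to 69687351), with no other annotated gene within 25 kb. A wide peak crossed its upper annotated end in both replicates. It ran from 69685365 to 69688125 in replicate 1 and from 69684079 to 69688004 in replicate 2. The peaks reached 774 bp and 653 bp beyond the gene, and 1986 bp and 3272 bp into it. They were 2761 bp and 3926 bp wide, ranks 163 of 12377 and 21 of 9477. The folds were 2.39 and 3.74, and −log10 q was 0.922 and 3.82. The peak of replicate 2 was the family's highest in fold and −log10 q, while that of replicate 1 stood at 67.5% of its list in fold.

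The shared part of the Ikzf2 peaks was 1 stretch of 2640 bp (69685365 to 69688004), longer than the shared length of 99.0% of protein-coding genes (rank 212). Per kb of its window of 206 kb the value exceeded 90.6% (rank 2048). Of this, 1654 bp lay within 1 kb of the gene end, which is rank 75 of all genes for that measure. Ikzf1 and Ikzf2 thus differed in layout. Ikzf1 had its shared cover split over 2 blocks and mostly beyond 1 kb from the annotated end, and Ikzf2 had 1 block that crossed its end. Further peaks at Ikzf2 belonged to a single replicate. Replicate 1 had a peak of 1165 bp inside the gene (69625734 to 69626898), 60.5 kb from the upper end, with a fold of 2.56. Replicate 2 had a peak of 2160 bp outside the gene (69698397 to 69700556), 11.0 kb past the upper end, with a fold of 2.66 and a −log10 q of 1.92.

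**Figure D2:**
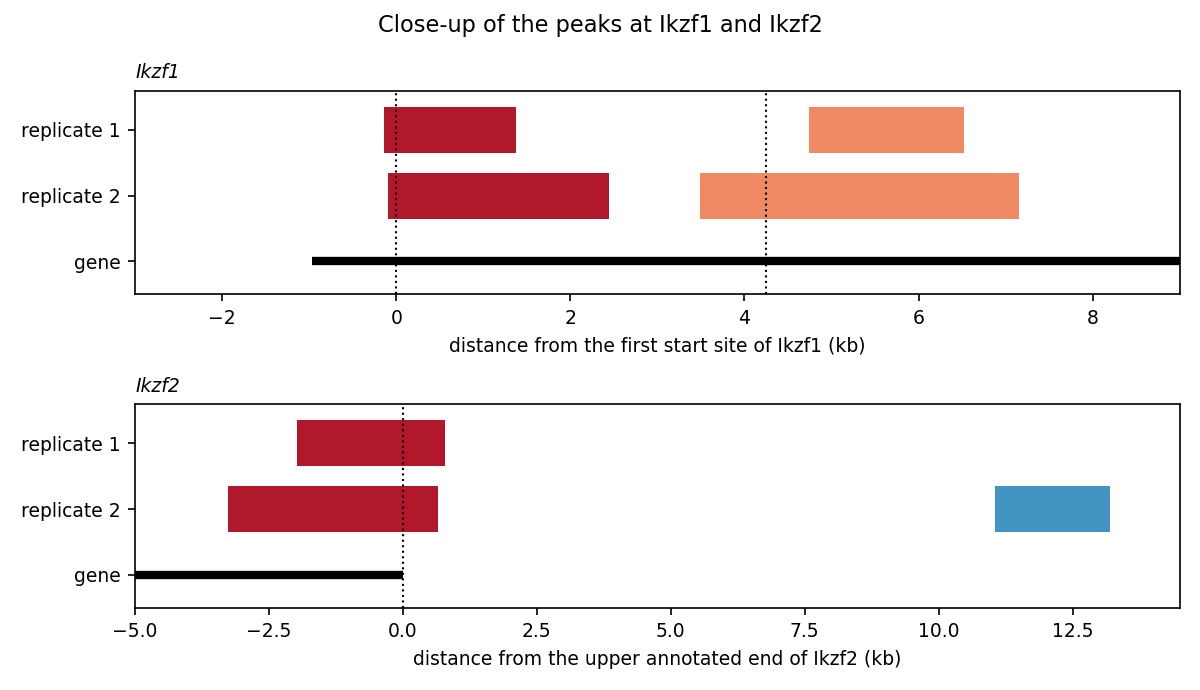
Close-up of the peaks, in kb from the first start site of Ikzf1 (dotted lines mark both start sites) and from the upper annotated end of Ikzf2 (dotted line). Red peaks touch the 1 kb around a gene end, orange peaks lie in the gene body, blue peaks in the flank and black bars are the genes. At Ikzf1 the first block starts within 139 bp of the start site in both replicates, and only the replicate 2 peak of the second block reaches over the second start site.

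Ikzf3 encodes Aiolos, which pairs with Ikaros in lymphocytes, and spans 81.4 kb on chromosome 11 (98464610 to 98546031), on the chromosome of Ikzf1. No peak of either replicate lay at its ends or in its body. Replicate 1 had a single flank peak of 386 bp (98551202 to 98551587) with a fold of 1.84, and replicate 2 a single one of 860 bp (98458815 to 98459674) with a fold of 2.29. They lay on opposite sides of the gene, 5.17 kb above it and 4.94 kb below it, so nothing was covered by both. Each was close to another gene. The replicate 1 peak lay 105 bp from the lower annotated end of Zpbp2, a zona pellucida binding protein gene, and the replicate 2 peak 585 bp from the upper end of Mien1. Among all genes, 38.1% had a peak of each replicate within 25 kb, as 4 of the 5 members did (Ikzf1, Ikzf2, Ikzf3 and Ikzf4). Bp covered by both were found at 30.9% of all genes, and at Ikzf1, Ikzf2 and Ikzf4. These 4 members are 38.8 kb to 156 kb long, against a median of 17.2 kb over all protein-coding genes. A longer gene has a longer span searched, and no share among genes of like length was computed for these counts.

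Ikzf4 encodes Eos and spans 38.8 kb on chromosome 10 (128630839 to 128669671). Its only shared acetylation within 25 kb lay outside the gene, at the neighbouring ribosomal protein gene Rps26. The peaks ran from 128626010 to 128626571 in replicate 1 and from 128626016 to 128626402 in replicate 2, 4.27 kb and 4.44 kb from Ikzf4. Their folds were 2.03 and 2.19, and their −log10 q was 0.608 and 1.06. The replicate 1 peak lay over the upper annotated end of Rps26 and the replicate 2 peak ended 104 bp from it. The 387 bp covered by both therefore stood nearer to Rps26 than to Ikzf4, whose annotated ends are 4332 bp apart. Inside Ikzf4, replicate 1 alone had a peak of 1053 bp (128645519 to 128646571), over the lower end of the lncRNA gene Gm26876 that lies in it. That peak had a fold of 1.66 and the lowest −log10 q of the family, 0.466. No peak lay at the upper end of Ikzf4, which is 215 bp from the gene Suox. Just outside the 25 kb span, a peak of each replicate stood 26.1 kb and 26.0 kb above the gene, and these peaks shared 376 bp.

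Ikzf5 encodes Pegasus and is the shortest member, 21.9 kb on chromosome 7 (131388649 to 131410518). Its upper end, where its start site lies, is 82 bp from the annotated end of Acadsb, an acyl-CoA dehydrogenase gene, and its lower end overlaps Pstk by 4120 bp. The 71.9 kb searched held no peak in either replicate, as for 38.4% of all protein-coding genes. The nearest peak of replicate 2 was 25.5 kb from the gene (131362401 to 131363155), with a fold of 3.43, and lay just outside the span. The nearest peak of replicate 1 was 522 kb away.

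**Figure D3:**
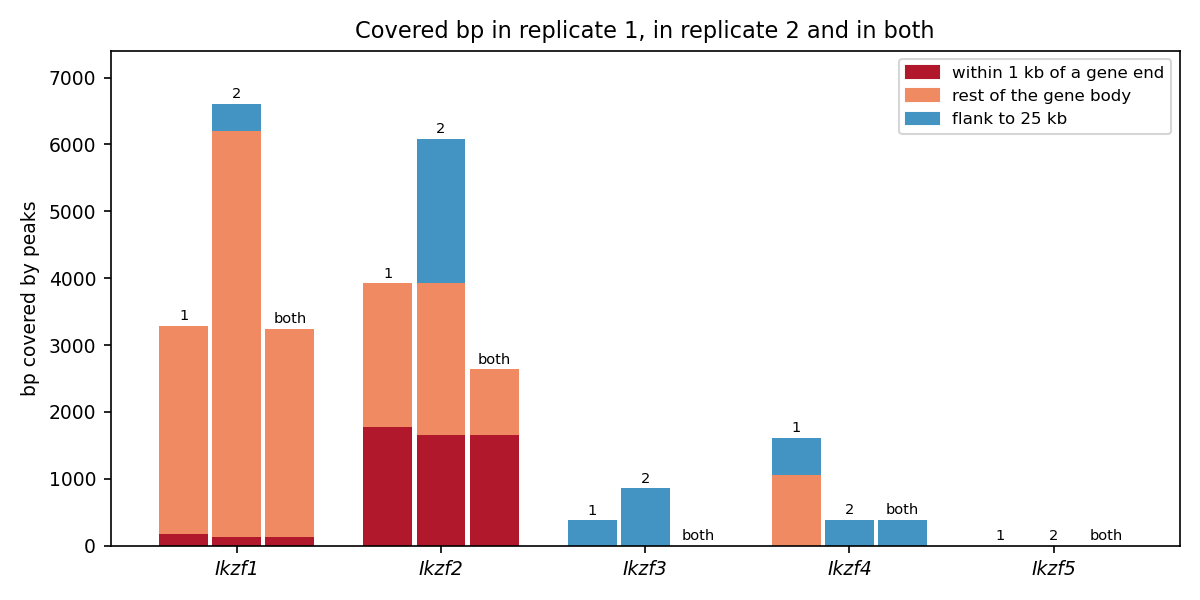
Bars give the bp covered by peaks of replicate 1, of replicate 2 and of both, for each gene and the 25 kb on either side, split by where the bases lie. Ikzf1 and Ikzf2 have 3242 bp and 2640 bp covered by both, Ikzf4 has 387 bp, all of it in the flank, and Ikzf3 and Ikzf5 have 0.

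Across the family, 14 peaks were counted, 7 in each replicate, and 8 of them met a peak of the other replicate. Of these 14, 4 lay at gene ends, 4 in gene bodies and 6 in flanks. Neither the share of all peaks that meet the other replicate nor their split by zone was computed. These counts therefore stand without a background. The peaks of replicate 2 covered more, 6610 bp at Ikzf1 and 6086 bp at Ikzf2, than those of replicate 1, which covered 3287 bp and 3926 bp. At Ikzf4 the order was the reverse, with 387 bp in replicate 2 and 1615 bp in replicate 1. The median of bp covered by both was 387 bp over the 5 members and 0 bp over all protein-coding genes. That 387 bp is the value of Ikzf4, and it lies in the flank, nearer to Rps26. All 5 members are also longer than the median gene (17.2 kb), so the spans searched were longer. Among the genes with any such cover the median was 629 bp.

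The 6 peaks that made up the shared blocks of Ikzf1 and Ikzf2 ranked higher in width than in −log10 q within their lists. They were wider than 90.1% to 99.8% of peaks, while their −log10 q exceeded that of 9.56% to 87.0%. It ranged from 0.528 to 1.20 in replicate 1 and from 1.32 to 3.82 in replicate 2. At a q of at most 0.05, 4 peaks remained, all in replicate 2. They were both blocks of Ikzf1 and the gene-end and flank peaks of Ikzf2. No peak of the 7 in replicate 1 passed, against 27.1% of its list, and 4 of 7 in replicate 2 did, against 41.0%. A gene-end peak at that threshold was found at 6.78% of all genes in replicate 1. In both replicates 0 of 5 members had a gene-end peak at that threshold, against 2.64% of all genes. In replicate 2 alone, Ikzf1 and Ikzf2 kept theirs, against 9.69% of genes.

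**Figure D4:**
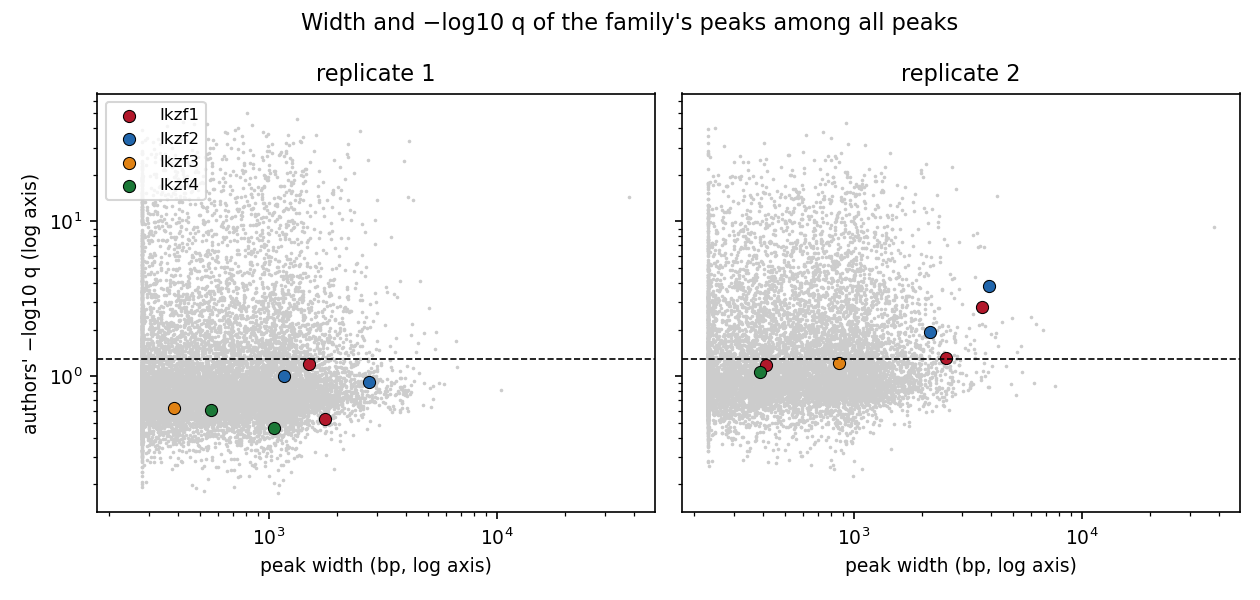
Each grey point is a peak of replicate 1 or replicate 2, with width in bp and the authors' −log10 q on log axes, and coloured points are the peaks of Ikzf1 to Ikzf4 within 25 kb. The dashed line marks a q of 0.05. In replicate 2, 4 coloured points lie above the line, and in replicate 1 none does.

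Genes whose pattern was most like that of a member were found by the distance over 6 values, log2(covered bp + 1) at gene ends, in the body and in flanks of each of the 2 replicates. The nearest to Ikzf1 were Cxxc5, Man1a and Mrpl48, at distances of 3.15, 3.56 and 3.70. The nearest to Ikzf2 were Dntt, Stim2 and Elp5, at 2.06, 2.77 and 2.79. Cover by both replicates did not itself enter the distance, but it cannot exceed the cover in either replicate, which did. It was 2834 bp, 1469 bp and 760 bp at the genes nearest to Ikzf1. At those nearest to Ikzf2 it was 1965 bp (Dntt, the gene of terminal transferase), 611 bp and 1886 bp. Those nearest to Ikzf4 were Gne, Foxk1 and Deptor, at 0.32, 0.43 and 0.45, with 0 bp, 0 bp and 335 bp covered by both. A zone covered in 1 gene and empty in the other adds much to the distance. Like these members, the genes nearest to Ikzf1 and Ikzf2 all had flank cover in replicate 2 alone. Flank cover is part of the distance, so that likeness follows from how the genes were chosen. No background stands beside these distances.

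The corepressors with which Ikaros proteins work were acetylated at gene ends in 9 of 17 cases (52.9%, against 16.8% of all genes). The count was 13 in replicate 1 and 11 in replicate 2, against 25.1% and 22.2% of all genes. Their median of bp covered by both was 475 bp. Sin3a, the scaffold of the Sin3 complex, had 3286 bp covered by both. Of NuRD, Gatad2a had 2636 bp and Mta2 had 1984 bp. For Chd4, the NuRD remodelling ATPase, the gene-end peak was seen in replicate 1 and not in replicate 2, and for the deacetylase genes Hdac1 and Hdac2 in replicate 2 and not in replicate 1. With q of at most 0.05, 2 of the 17 had gene-end peaks in both replicates, against 2.64% of all genes.

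The cereblon ubiquitin ligase, which degrades Ikaros and Aiolos in human cells treated with thalidomide analogues, had gene-end peaks in both replicates at 3 of 5 genes (60.0%, against 16.8% of all genes). These were Cul4a, its scaffold, with 1437 bp covered by both, Ddb1, its adaptor, with 400 bp, and Rbx1, its RING subunit. Crbn, the substrate receptor itself, had no gene-end peak and 337 bp covered by both within 25 kb. With q of at most 0.05, 0 of the 5 had one, against 2.64% of all genes.

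Genes known as Ikaros targets in early lymphocytes had gene-end peaks in both replicates in 3 of 18 cases (16.7%), close to the 16.8% of all genes. They were Dntt, Hes1, a Notch target with 425 bp covered by both, and Kit. The genes with most bp covered by both were Dntt (1965 bp), Flt3 (1261 bp), a receptor of early progenitors, and the neighbours Igll1 and Vpreb1, surrogate light chain genes of B cell precursors, which share the same 1186 bp. Counted in 1 replicate the list had 7 of 18 in replicate 1 and 4 of 18 in replicate 2, against 25.1% and 22.2% of all genes. Ptcra, Notch3, Il7r and Gfi1 were counted in replicate 1 but not 2, and Il2ra in replicate 2 but not 1. Cd4, Cd8a, Dtx1, Rag1 and Rag2 had no peak within 25 kb in either replicate, as for 38.4% of all genes.

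**Figure D5:**
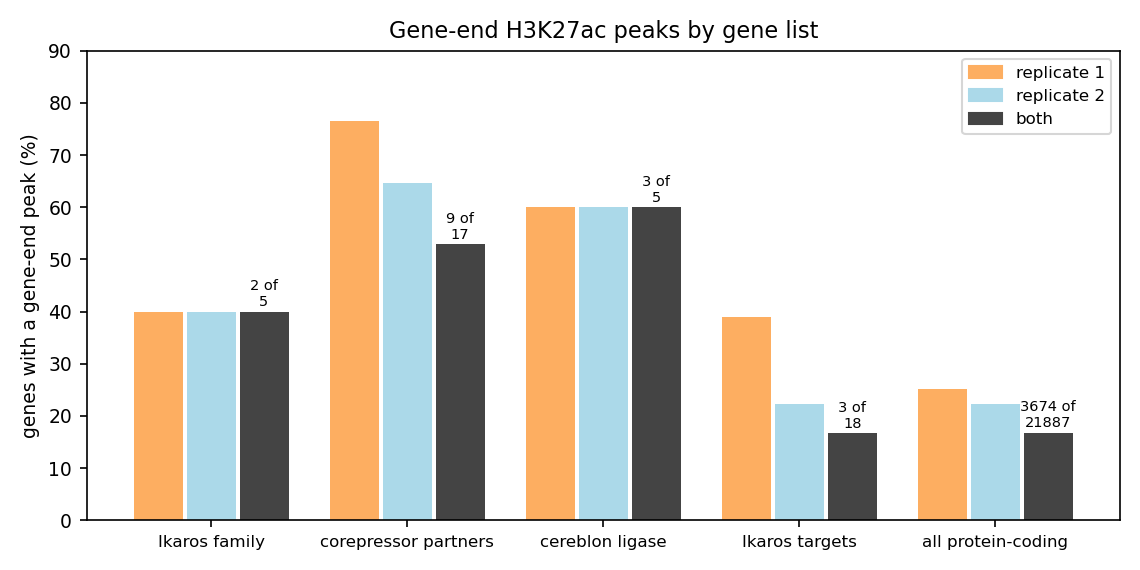
Share of genes with a gene-end peak in replicate 1, in replicate 2 and in both (percent), for the family, the gene lists and all protein-coding genes. The shares with peaks in both are 40.0% for the family, 52.9% for corepressor partners, 60.0% for the cereblon ligase, 16.7% for Ikaros targets and 16.8% for all genes.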

How the data were processed

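Bowtie2, MACS 1.4.2 and mm10 were used per the submitters' processing notes. As deposited, the lists have the 9 columns of the broad format of MACS2, so which version wrote them is uncertain. Each list carries 1 library index and "rmdup" in its peak names, hence calling per sample on reads without duplicates. For cutoff and control, the sources used here give nothing. The authors' values per peak, a fold (ratio), a −log10 p-value and a −log10 q-value, served only to describe and filter. The authors' score, 10 times −log10 q cut to a whole number in all but 1 peak of replicate 1, was not used.

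Positions are mm10, counted from 1. Genes came from RefSeq (GRCm38.p6), in a table without strand. A peak was placed at a gene end (overlap of at least 1 bp with 1 kb on either side of an annotated end), else in the body, else in the flank (25 kb). Covered bp were counted within 25 kb of a gene. No test was run, since the samples form 1 group, and counting intervals need depths. The CpG ratio is CpG count times length over C count times G count. Coverage was checked against a count base by base on the peaks of replicate 1 in random windows. Zones were checked on positions planted around genes. Python 3.11.15, numpy 2.4.6 and pandas 2.3.3 were used.

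Named are all members, genes with an end within 1 kb of their peaks, the 3 genes of each list with most bp covered by both replicates, and the 3 nearest patterns. Other list genes and Suox, Acadsb and Pstk were chosen after their values were seen. Members, lists and windows were chosen with earlier results of these data known.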

Additional observations from a re-analysis of the deposited data

How the results depend on the processing

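At q of at most 0.05, 0 members had a gene-end peak and 0 had any peak within 25 kb in both replicates, 4 of the 14 peaks were left, and 0 bp were covered by both, against 6269 bp over the family with all peaks. The corepressor, cereblon and target lists then had 2, 0 and 0 genes with gene-end peaks, against 2.64% of all genes. At q of at most 1e-05 the members had 0 on all 4 measures and the lists had 1, 0 and 0. With a gene-end window of 500 bp, 1 member was left (Ikzf2), since the Ikzf1 peaks begin 824 bp and 869 bp from its annotated end. Where at least 50% of a peak's width had to lie in the window, 0 members were left in both replicates. At Ikzf2, 1775 of 2761 bp of the replicate 1 peak lay within 1 kb of the end, which met this rule. Of the wider replicate 2 peak, 1654 of 3926 bp did, which fell short. Within 2.5 kb, 6 target genes had gene-end peaks against 3 within 1 kb. With a peak in either replicate the family had 16888 covered bp, the corepressor list 15 genes and the target list 8. The share of all genes was not computed at q of at most 1e-05, within 500 bp or 2.5 kb, or for either replicate. Nor was it computed for the rule of 50% of a peak's width or for the 10000 peaks of smallest p. A wider window or either replicate can only raise such a count, in any list. Leaving out a replicate gave 7 peaks each time and 9214 to 13943 covered bp. It gave 4 target genes in replicate 2 and 7 in replicate 1, against 22.2% and 25.1% of all genes. With the 10000 peaks of smallest p, or outer windows of 10 kb and 50 kb, members with gene-end peaks stayed at 2, and the family had 11, 12 and 21 peaks. The 10000 peaks left 3 members with a peak within 25 kb in both replicates and 4491 bp covered by both, of which 1464 bp lay at Ikzf1. The 5' end alone was not run, since the promoter table matched 2 members. No paired analysis was possible because the samples form 1 group. The unknown depth limits what an absent peak at Ikzf3, Ikzf4 or Ikzf5 shows.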
